A study of Homo sapiens with 3 samples.

Results

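The nuclear hormone receptors are a family of transcription factors, and 46 of their genes, named in a list drawn up with earlier results of these data known, were described among the 19220 genes of the count table. The list was built around PGR, the progesterone receptor gene, whose counts led to the choice: it had none in the parental library and counts in both resistant ones. The 46 genes are not the whole family. A total of 37 of them averaged 10 counts or more per library and could be compared, 6 had at most 3 counts in each of the 3 libraries, and the remaining 3 lay between.

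RNA-seq was done on CAL27, a human oral squamous cell carcinoma line, and on its 5-fluorouracil (5FU)-resistant and oxaliplatin (OXA)-resistant derivatives, to find genes that differ between parental and resistant cells. The CAL27 library (genotype given as WT) came from drug-free culture, the CAL27/5FU library from resistant cells kept in 10 μM 5FU, and the CAL27/OXA library from resistant cells kept in 10 μM OXA. Each line was used here as 1 library, so resistance, the drug present in the medium and the history of a single derivative cannot be told apart, and no difference has a replicate check here. Both resistant lines are set against the same CAL27 library, so its counting error enters both comparisons. All 3 lines grew in medium with fetal bovine serum, which itself carries hormones and other receptor ligands.

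Nuclear receptors hold a zinc-finger domain that binds short DNA motifs and a pocket that binds a fat-soluble ligand. Steroid receptors wait in a chaperone complex and bind DNA as pairs of the same receptor, whereas the retinoid, vitamin D, thyroid hormone, PPAR and LXR receptors pair with a retinoid X receptor (RXR). Orphan members have no settled natural ligand, and several repress rather than activate their targets. In squamous epithelium the retinoic acid receptor RARG and its partner RXRA are the main retinoid receptors, and retinoid, vitamin D and glucocorticoid signals steer growth and keratinisation.

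The libraries held between 37297713 and 43455488 counts, and between 15275 and 15407 genes had counts. CDH1, EPCAM and the squamous markers KRT5 and TP63 were present in all 3. Of 10 squamous markers, 8 were over 2-fold lower in CAL27/5FU and 6 in CAL27/OXA, and their summed level went from 14861 CPM (counts scaled to library size) in CAL27 to 3486 and 4911. Of 8 markers of hormone-responsive luminal epithelium, a tissue in which PGR is typical, TFF1 was at 0 in each library, GATA3 had 21, 63 and 53 counts, and GREB1 had 122, 44 and 22. Of the 6 compared, 1 was higher and 1 lower in CAL27/5FU, and 1 was higher and 2 lower in CAL27/OXA, and their sums stood at 1400, 2128 and 1341 CPM. Of the leukocyte markers PTPRC had at most 2 counts, and CD68 alone was compared, within 2-fold of CAL27 in both lines and over 2-fold higher in CAL27/OXA than in CAL27/5FU, with sums of 81.0, 47.0 and 114.0 CPM for the list. Of the fibroblast markers COL3A1 was at 0 throughout, 2 of 4 compared were higher in each line, and the sums were 41.95, 47.09 and 50.04 CPM. Of 3 endothelial markers compared, 1 was higher and 1 lower in CAL27/5FU and 1 was higher in CAL27/OXA, with sums of 2.57, 9.35 and 4.70 CPM. Beside these counts, 8.46% of all genes compared were over 2-fold higher and 6.72% lower in CAL27/5FU, and 6.54% and 9.28% in CAL27/OXA. The part of the marker genes in the receptor differences was not tested. In bulk RNA fewer cells with a transcript and less of it per cell cannot be told apart.

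Per transcript length, the highest levels were those of orphan, lipid and retinoid receptors. ESRRA, the estrogen-related receptor alpha of mitochondrial genes, led with a mean over the 3 libraries of 54.1 FPKM. FPKM are fragments per kilobase of transcript, scaled to total counts, unlike CPM. NR2F6 followed with 40.2, NR1H2 (the sterol receptor LXR beta) with 35.0, PPARD with 33.0 and RXRA with 31.9. RARG with 17.2, RXRB with 16.8, NR2C1 with 14.8, VDR with 14.6 and NR2F2 with 12.4 completed the top 10. ESRRA shares 284 of its 3030 exon bases (9.37%) with the opposite-strand TRMT112, and RXRB 6.22% with SLC39A7. Outside the top 10, NR2C2 shares 10.1% with MRPS25. The strandedness is not given, so part of their reads may be of those genes. The sex steroid receptors were far lower, with ESR1 between 0.28 and 0.35 FPKM and ESR2 between 0.52 and 0.71. A level of at least 1 FPKM was reached by 21, 23 and 22 receptors in CAL27, CAL27/5FU and CAL27/OXA. RXRG, HNF4A, ESRRB and NR0B1 were at 0 counts in every library, NR1H4 had 2 counts in CAL27/OXA alone, and NR1I2 had 0, 1 and 3 counts.

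**Figure D1:**
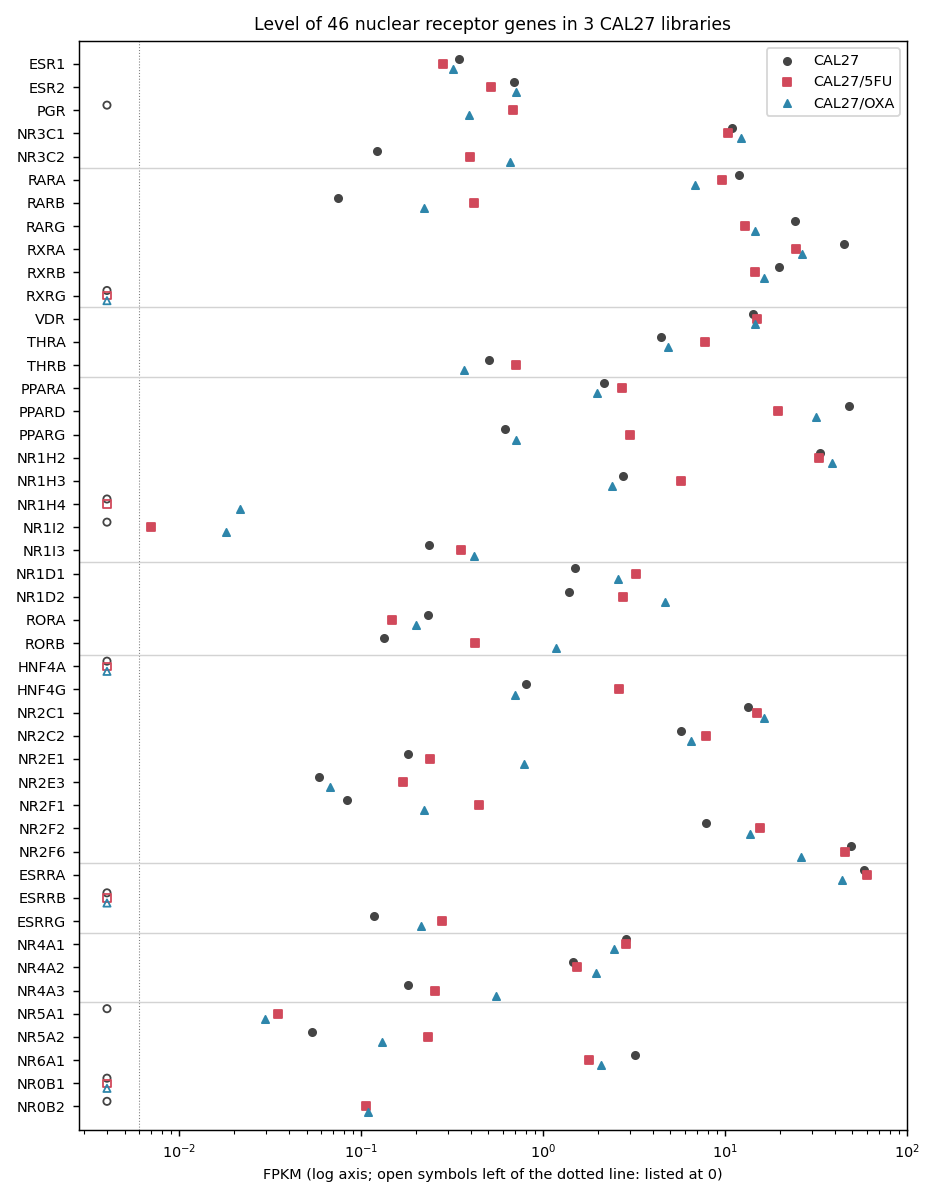
FPKM of the 46 receptor genes (log axis) in CAL27 (circles), CAL27/5FU (squares) and CAL27/OXA (triangles), grouped by role, with open symbols for genes listed at 0. PGR is at 0 in CAL27 and at 0.68 and 0.39 FPKM in the resistant lines, well under NR3C1 at 10.4 to 12.2.

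Past 2-fold in CAL27/5FU against CAL27 were 9 receptors that were higher and 4 that were lower of the 37 compared, which is 24.3% and 10.8%, where 8.46% and 6.72% of all 13676 genes compared were past it. In CAL27/OXA 9 were higher and 1 was lower, beside 6.54% and 9.28% of all genes. Both sets of 9 include PGR, whose values chose the list, and RARB. These genes entered the comparison only through the resistant libraries, so each had to have more counts in at least 1 of them. Between the resistant lines 3 receptors were higher and 3 lower in CAL27/OXA, beside 4.18% and 8.38% of all genes. Ratios are of counts scaled by TMM, a factor that aligns the bulk of genes, and each interval is an exact 95% interval that covers counting error only. The receptors' median log2 ratio was 0.22 in CAL27/5FU and 0.03 in CAL27/OXA, where that of all genes was within 0.01 of 0. The median size of the log2 ratio was 0.63 and 0.61 for receptors and 0.33 and 0.34 for all genes. PGR, NR3C2, RARB, RORB, NR2F1 and NR5A2 were over 2-fold higher in both resistant lines. Of these, only PGR, whose values chose it, had its whole interval past 2-fold in both. The lower ends for NR3C2 (0.92) and RORB (0.75) in CAL27/5FU were under 2-fold. So were those for RARB (0.32), NR2F1 (0.33) and NR5A2 (0.11) in CAL27/OXA. No receptor was over 2-fold lower in both lines, and 19 stayed within 2-fold in all 3 comparisons. The shares of all genes higher in both lines, lower in both or within 2-fold throughout were not counted. These joint counts of receptors therefore have no background beside them.

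The higher receptors were mostly scarce ones. Of 14 receptors with a mean level under 1 FPKM, 7 were over 2-fold higher in CAL27/5FU and 8 in CAL27/OXA, and none was lower. In all 2282 genes at such levels 25.6% and 19.9% were higher, and 16.9% and 21.3% were lower. Of 23 receptors at or over 1 FPKM, 2 were higher and 4 lower in CAL27/5FU, and 1 was higher and 1 lower in CAL27/OXA, where 5.03% and 4.69%, and 3.85% and 6.87%, of all 11394 genes at such levels were. PGR and RARB had under 10 counts in CAL27 and entered the comparison only through the resistant libraries. Each thus had to have more counts in at least 1 of them. Scaling by total counts instead of TMM moved the median log2 ratio of all genes to 0.17 for CAL27/5FU and 0.14 for CAL27/OXA. The receptors past 2-fold then split into 11 higher and 1 lower in CAL27/5FU and 9 and 0 in CAL27/OXA, and of all genes past 2-fold in CAL27/5FU 67.2% rather than 55.7% were higher.

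**Figure D2:**
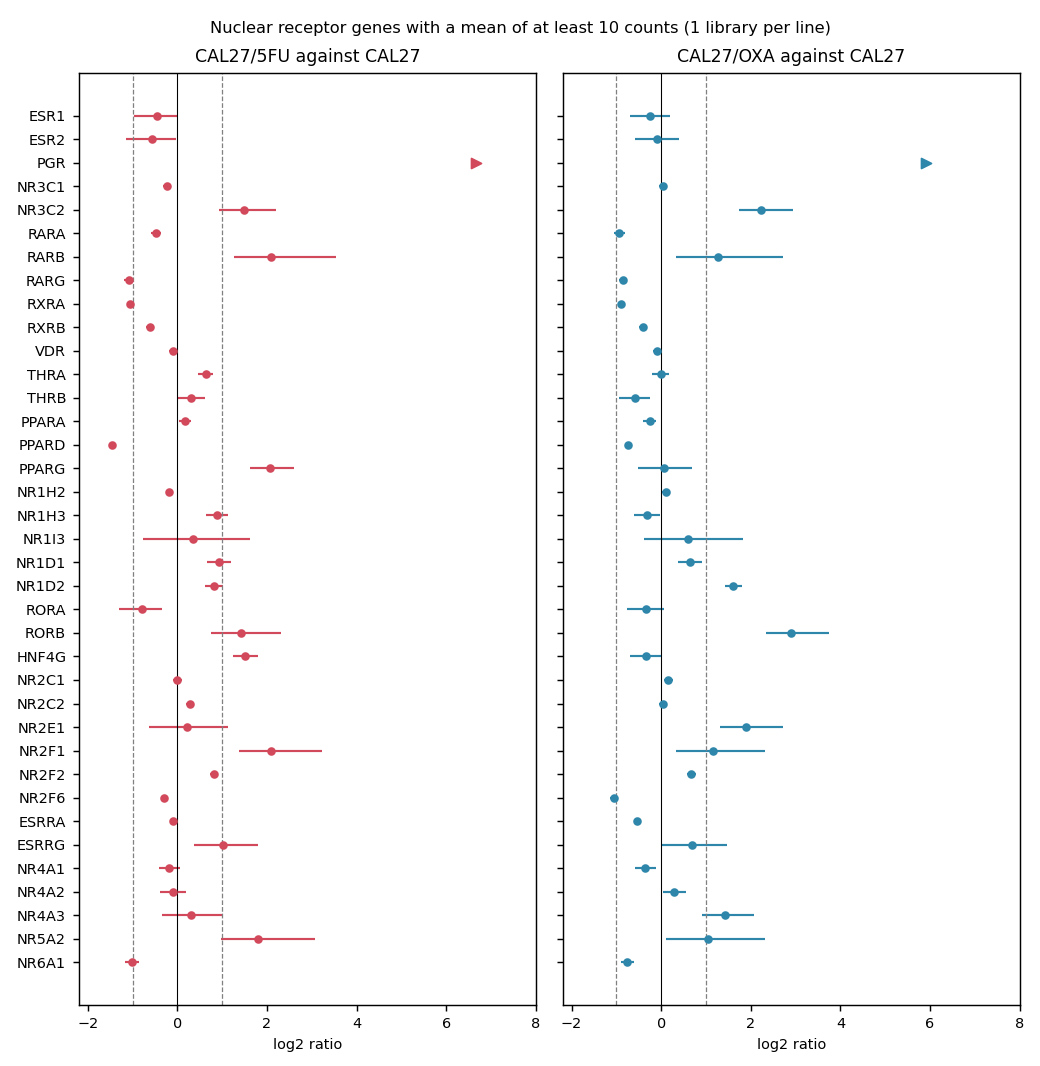
Log2 ratio of the 37 compared receptors in CAL27/5FU (left) and CAL27/OXA (right) against CAL27, with exact 95% counting intervals as bars, arrowheads for the lower bounds of PGR and dashed lines at 2-fold. NR3C2, RARB, RORB, NR2F1 and NR5A2 lie right of the upper 2-fold line in both panels, though the interval of each crosses it in at least 1 panel. RARG, RXRA, PPARD and NR6A1 lie left of the lower line in the CAL27/5FU panel.

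PGR encodes the progesterone receptor, which mediates the response of breast and uterus to progestins. It lies on the minus strand at chr11:101029624-101130524 (GRCh38). The 250 bases before its RefSeq start, at chr11:101129078-101129327 (GRCh38.p14, minus strand), lie inside the longer GENCODE gene model and are shown because the gene was without counts in CAL27.

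PGR: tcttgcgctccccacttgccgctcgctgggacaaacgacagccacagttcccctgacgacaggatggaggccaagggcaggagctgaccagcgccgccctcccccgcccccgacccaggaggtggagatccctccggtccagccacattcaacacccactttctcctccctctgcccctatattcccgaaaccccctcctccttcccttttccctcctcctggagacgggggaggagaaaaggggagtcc

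None of the half-sites searched on both strands (AGAACA of steroid receptors, AGGTCA of RXR partners and its common variants GGTTCA and AGTTCA) is in this window, so nothing in it is in capitals. PGR had 0 counts in the parental line, 307 in CAL27/5FU and 204 in CAL27/OXA. Against a floor of 3 counts per library, it was at least 102-fold higher in CAL27/5FU and at least 59.6-fold higher in CAL27/OXA. These values chose the gene and are a description. Its level was still low, at 7.84 and 4.59 CPM, and per length at 6.55% and 3.18% of NR3C1, the glucocorticoid receptor gene. The log2 ratio of CAL27/OXA to CAL27/5FU was -0.77 (95% interval -1.03 to -0.51). The antisense gene PGR-AS1 shares 812 of the 15404 exon bases of PGR (5.27%) and is not in the count table, and the strandedness of the libraries is not given, so reads from it cannot be told apart from those of PGR there.

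Across the table, 319 of 19220 genes (1.66%) had at most 3 counts in CAL27 and more than 3 in both resistant lines. Among the receptors these were PGR, NR5A1 with 0, 4 and 4 counts, and NR0B2 with 0, 5 and 6, and the latter pair lay barely over the floor. Only 5 genes had 0 counts in CAL27 and at least 100 in both resistant lines, which were NEGR1, PGR, ROBO1, RTN1 and SH3GL2. PGR was chosen for this very pattern, so its place among them is a description. The others were chosen by this count after it was seen. NEGR1, ROBO1, RTN1 and SH3GL2 are best known from neurons.

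The 10 nearest compared genes around PGR, 5 on each side, had a median log2 ratio of 0.08 in CAL27/5FU and 0.05 in CAL27/OXA. CNTN5, a neural adhesion gene that starts 2.11 Mb before PGR on the chromosome, was the 1 neighbour over 2-fold higher in each line, with 40, 232 and 887 counts and log2 ratios of 2.47 and 4.22. ARHGAP42, the nearest on that side at 0.443 Mb, had 192, 282 and 372 counts and log2 ratios of 0.54 and 0.76. YAP1, on the far side, had 10389, 9786 and 11500 counts, and BIRC3 and MAML2 were over 2-fold lower in CAL27/OXA, with log2 ratios of -1.07 and -1.19.

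**Figure D3:**
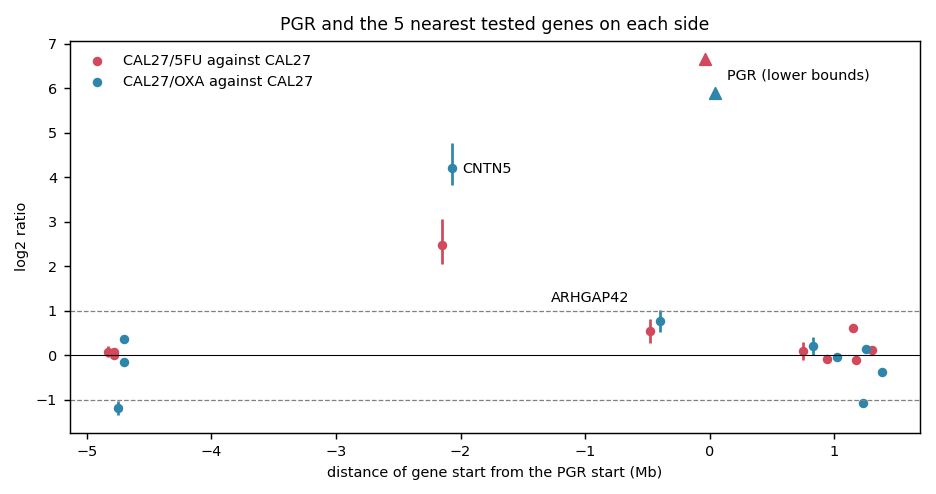
Log2 ratio against CAL27 of the 5 nearest compared genes on each side of PGR, by the distance of their start from the PGR start in Mb, with exact 95% counting intervals, triangles for the lower bounds of PGR and dashed lines at 2-fold. CNTN5, at 2.47 and 4.22, is the single neighbour above the upper line.

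The other steroid receptors did not share a direction. NR3C2, the mineralocorticoid receptor gene of salt balance, had 29, 85 and 164 counts in CAL27, CAL27/5FU and CAL27/OXA, with log2 ratios of 1.48 (0.92 to 2.21) and 2.24 (1.73 to 2.93). NR3C1 had 2930, 2490 and 3412 counts and log2 ratios of -0.24 and 0.03. The FPKM of NR3C2 as a share of that of NR3C1 was 1.11% in the parental line, 3.82% in CAL27/5FU and 5.38% in CAL27/OXA, and this share depends on no scaling. ESR1 had 90, 65 and 86 counts and ESR2 70, 47 and 75, and both stayed within 2-fold, with intervals for CAL27/5FU that reach down to -0.96 and -1.15.

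Of the 10 chaperones and cochaperones that hold steroid receptors ready, none was past 2-fold in either line, and their median log2 ratios were -0.42 and -0.46, or -0.25 and -0.32 by total counts. Of 9 glucocorticoid target genes compared, 2 were over 2-fold lower in each line and none was higher. Among all genes 8.46% were higher and 6.72% lower in CAL27/5FU, and 6.54% and 9.28% in CAL27/OXA. TSC22D3, which encodes the anti-inflammatory protein GILZ, had 3469, 885 and 1134 counts, and CDKN1C, a cell-cycle inhibitor gene, had 40, 13 and 20. FKBP5, the cochaperone gene commonly read as a measure of glucocorticoid response, had 5579, 4323 and 3301 counts.

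Target genes of the sex steroids pointed in several directions. Of 6 progestin targets compared, 2 were over 2-fold higher and 1 lower in CAL27/5FU, and 1 was higher and 1 lower in CAL27/OXA. All genes gave 8.46% and 6.72%, and 6.54% and 9.28%, here and for the estrogen targets below. WNT4, a signal in breast branching, had 694, 43 and 15 counts, while AREG, a growth factor gene, had 43, 84 and 259 counts. TNFSF11, which encodes RANKL, had 0, 33 and 0 counts, which puts CAL27/5FU at least 10.9-fold over CAL27. It entered the comparison through that library alone and had to be higher there. HAND2 and IHH, known uterine progestin targets, were at 0 in every library. Of 7 estrogen targets compared, 2 were higher and 3 lower in CAL27/5FU, and 1 was higher and 2 lower in CAL27/OXA. IGFBP4 had 255, 2565 and 1012 counts, CA12 had 1414, 273 and 153, and GREB1 was named above. TFF1, TFF3 and CXCL12 were at 0 throughout.

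Of the 5 retinoid receptors compared, 1 was over 2-fold higher and 2 lower in CAL27/5FU, and 1 was higher and none lower in CAL27/OXA. The shares of all genes were 8.46% and 6.72%, and 6.54% and 9.28%. RARB, a retinoic acid receptor gene that retinoids induce through its own promoter, lies on chromosome 3. Its upstream 250 bases, chr3:25428013-25428262 (GRCh38.p14, plus strand), are shown for that element, with capitals for the half-sites.

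RARB: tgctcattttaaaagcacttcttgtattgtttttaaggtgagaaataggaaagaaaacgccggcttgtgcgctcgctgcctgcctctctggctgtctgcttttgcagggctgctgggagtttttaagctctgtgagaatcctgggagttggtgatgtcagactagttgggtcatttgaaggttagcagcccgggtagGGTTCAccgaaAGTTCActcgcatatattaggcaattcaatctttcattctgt

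The half-sites GGTTCA and AGTTCA start 53 and 42 bases before the start site and leave 5 bases between them, the spacing of the well-known retinoic acid response element of this gene. Of 35116 RefSeq promoters of 300 bases, searched on both strands, 8.62% hold GGTTCA and 10.4% AGTTCA, and of the 41 receptor promoters matched 7.32% and 14.6% do. AGAACA was in 14.8% of all promoters and 14.6% of those of receptors, and AGGTCA in 13.8% and 17.1%. A match is a description of letters and no proof of binding.

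RARB had 9, 45 and 28 counts in CAL27, CAL27/5FU and CAL27/OXA, with log2 ratios of 2.10 (1.26 to 3.53) and 1.28 (0.32 to 2.72), the latter reaching well under 2-fold. RARG had 2715, 1287 and 1716 counts and log2 ratios of -1.08 (-1.18 to -0.99) and -0.85. RXRA had 11089, 5383 and 6744 counts and log2 ratios of -1.05 (-1.097 to -1.002) and -0.91. Both were past 2-fold by a small margin in CAL27/5FU and within it in CAL27/OXA, and in CAL27/5FU scaling by total counts left them within 2-fold. RARA had 1647, 1183 and 985 counts and log2 ratios of -0.48 and -0.93, and RXRB had 2208, 1455 and 1902 and ratios of -0.61 and -0.40, all within 2-fold. The summed level of the retinoic acid receptors was 36.1 FPKM in the parental line, 22.8 in CAL27/5FU and 21.7 in CAL27/OXA, and that of the RXR genes 64.6, 38.9 and 42.5. The squamous markers were lower in both lines as well, as given above, and their part in these differences was not tested. Within the subfamily RARB made up 0.21%, 1.83% and 1.02% of the RAR sum, so its higher count scarcely touched the total.

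Retinoid target and handling genes were compared next. Of 9 retinoid targets compared, 4 were over 2-fold higher and none lower in CAL27/5FU, and 1 was higher and 3 lower in CAL27/OXA, with median log2 ratios of 0.72 and -0.62. Between the resistant lines 1 was higher and 5 were lower in CAL27/OXA, with a median of -1.34, beside the 4.18% and 8.38% of all genes given above. Against CAL27 all genes gave 8.46% and 6.72%, and 6.54% and 9.28%, here and for the enzymes below. STRA6, the cell-surface receptor that takes up vitamin A, had 246, 585 and 2 counts in CAL27, CAL27/5FU and CAL27/OXA, at least 93.5-fold lower in the latter than in CAL27. CRABP2, which carries retinoic acid to its receptors, had 202, 955 and 289 counts. CYP26B1, an enzyme that breaks retinoic acid down, had 69, 156 and 445, and DHRS3, which returns retinaldehyde to retinol, had 2531, 2919 and 861. ALDH1A3, which makes retinoic acid, had 4123, 20897 and 8364 counts. It was one of 20 genes compared of enzymes that make or remove receptor ligands, of which 7 were higher and none lower in CAL27/5FU, and 4 were higher and 1 lower in CAL27/OXA.

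**Figure D4:**
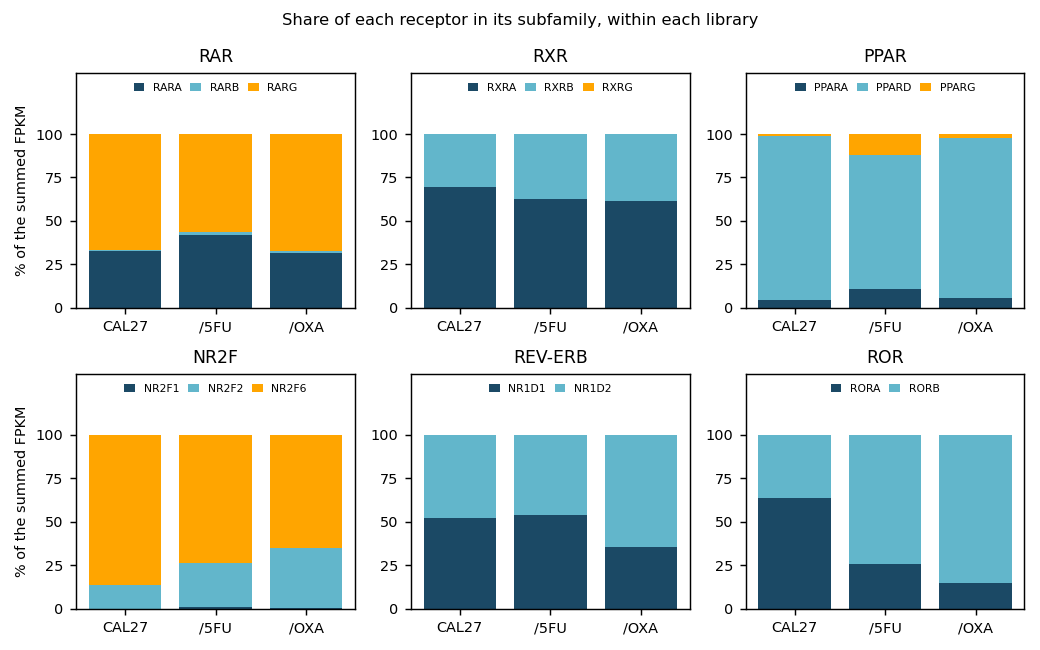
Share of each member in the summed FPKM of the listed members of 6 receptor subfamilies within each library, in percent, for CAL27, CAL27/5FU and CAL27/OXA. RORB goes from 36.5% of the sum of RORA and RORB in CAL27 to 74.1% and 85.4%, and PPARG from 1.22% to 11.8% and 2.08%.

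The receptors for vitamin D and thyroid hormone were within 2-fold. VDR had 2877, 2683 and 3056 counts, with log2 ratios of -0.11 and -0.10. THRA had 458, 713 and 517 counts and THRB 159, 199 and 120. The VDR target genes spread more widely. Of 6 compared, 4 were over 2-fold higher and 1 lower in CAL27/5FU, and 2 were higher and 3 lower in CAL27/OXA. The shares of all genes were 8.46% and 6.72%, and 6.54% and 9.28%. CYP24A1, the enzyme that degrades active vitamin D and a highly responsive VDR target, had 10, 130 and 40 counts, and SPP1, the osteopontin gene, 10, 62 and 199. TRPV6, a calcium channel gene, had 5, 37 and 12. It entered the comparison only through the resistant libraries, so it had to be higher in at least 1 of them. CYP24A1 and SPP1 stood at 10 counts in CAL27, the edge of the filter. IGFBP3, a growth factor binding protein gene with several other regulators, had 261616, 50305 and 20373 counts. CYP27B1, which makes active vitamin D, had 10, 79 and 107 counts.

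The PPAR genes, receptors for fatty acids, lay on opposite sides of CAL27 in CAL27/5FU. PPARG, the regulator of fat cell formation, is transcribed on the plus strand of chromosome 3. Its upstream 250 bases, chr3:12287118-12287367 (GRCh38.p14), are shown for their AGGTCA half-sites in capitals, which start 217 and 184 bases before the start site.

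PPARG: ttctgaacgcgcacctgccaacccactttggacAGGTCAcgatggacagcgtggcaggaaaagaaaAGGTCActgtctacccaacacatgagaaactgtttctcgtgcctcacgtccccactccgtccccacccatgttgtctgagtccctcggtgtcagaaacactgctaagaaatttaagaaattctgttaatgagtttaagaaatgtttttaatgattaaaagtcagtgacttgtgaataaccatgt

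PPARG had 45 counts in the parental line, 194 in CAL27/5FU and 54 in CAL27/OXA. Its log2 ratio was 2.06 (1.63 to 2.60) in CAL27/5FU and 0.07 (-0.52 to 0.68) in CAL27/OXA, and that of CAL27/OXA to CAL27/5FU was -1.98 (-2.49 to -1.59). The intervals of the resistant lines against CAL27 did not meet. PPARD, the abundant isotype in keratinocytes, had 6631, 2422 and 4545 counts, with log2 ratios of -1.46 (-1.53 to -1.39) and -0.73 (-0.79 to -0.68). PPARA had 898, 1017 and 855. The PPAR sum was 50.7, 25.3 and 34.2 FPKM, and the share of PPARG in it was 1.22%, 11.8% and 2.08%. Of 6 PPAR targets compared, 1 was over 2-fold lower in each line, beside 6.72% and 9.28% of all genes, and none was higher. PLIN2, a lipid droplet gene, had 22, 9 and 16 counts, and CD36, a fatty acid transporter gene, 19, 20 and 4.

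NR1H3, which encodes LXR alpha, had 211, 391 and 192 counts in CAL27, CAL27/5FU and CAL27/OXA. It was within 2-fold of CAL27 in both lines, and its log2 ratio of CAL27/OXA to CAL27/5FU was -1.20 (-1.47 to -0.96). NR1H2 had 2692, 2392 and 3284 counts. Of 8 LXR targets, 3 were over 2-fold higher and 2 lower in CAL27/5FU, and none was higher and 4 were lower in CAL27/OXA. The shares of all genes were 8.46% and 6.72%, and 6.54% and 9.28%. ABCA1, a cholesterol exporter gene, had 29, 195 and 64 counts and APOE 30, 190 and 35, and both counts were highest in CAL27/5FU. SCD, a fatty acid desaturase gene that SREBP also drives, had 87692, 13420 and 6232, and MYLIP had 827, 369 and 173. Among xenobiotic receptors NR1I3 had 12, 16 and 22 counts and shares 661 of its 3305 exon bases (20%) with the opposite-strand TOMM40L, so some of these may be of TOMM40L. Of 2 of their targets compared 1 was higher in CAL27/5FU and none was past 2-fold in CAL27/OXA. ABCB1, a drug efflux pump gene listed as their target, stood at 0, 368 and 1, a bound of at least 122-fold for CAL27/5FU, the library through which alone it was compared, while NR1I2 did not pass the floor.

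Of 4 clock-linked receptors, 1 was over 2-fold higher in CAL27/5FU and 2 in CAL27/OXA, beside 8.46% and 6.54% of all genes. None was over 2-fold lower, beside 6.72% and 9.28%. NR1D2, which encodes the repressor REV-ERB beta, had 299, 530 and 1043 counts, with log2 ratios of 0.81 and 1.61 (1.426 to 1.803). NR1D1 had 174, 333 and 309 counts and log2 ratios of 0.92 and 0.63. It shares 263 of its exon bases (9.49%) with the opposite-strand THRA, so part of its counts may be of THRA where strand was not used. RORB, an activator at the same DNA sites that is best known from retina and cortex, had 20, 57 and 183 counts, with log2 ratios of 1.42 (0.75 to 2.32) and 2.89 (2.34 to 3.75). Its ratio of CAL27/OXA to CAL27/5FU was 1.47 (1.06 to 1.96). RORA had 105, 60 and 94 counts, so RORB made up 36.5%, 74.1% and 85.4% of the pair's FPKM. Of 15 clock genes, 2 were over 2-fold higher and 1 lower in CAL27/5FU, and none was higher and 2 lower in CAL27/OXA. That is 13.3% and 6.67%, and 0 and 13.3%, beside 8.46% and 6.72%, and 6.54% and 9.28%, of all genes. PER3 had 172, 658 and 251 counts, NPAS2 303, 806 and 221, and DBP, an output gene of the clock, 381, 310 and 152. BHLHE40 was lower in both lines, with 6573, 3212 and 3167. The time of harvest is not given in the sources used here.

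Of 7 compared receptors of the second subfamily, which holds orphans and the HNF4 genes, 2 were over 2-fold higher in CAL27/5FU (NR2F1 and HNF4G). In CAL27/OXA 2 were higher (NR2F1 and NR2E1) and 1 lower (NR2F6). All genes gave 8.46% and 6.72%, and 6.54% and 9.28%. Among all genes under a mean of 1 FPKM, where NR2F1 and NR2E1 lie, 25.6% and 19.9% were higher, and 16.9% and 21.3% lower. NR2F6, a repressor with a role in T cells, had 3712, 3055 and 2038 counts, and its log2 ratio was -1.05 (-1.13 to -0.98) in CAL27/OXA, within 2-fold when scaled by total counts. NR2F1, a regulator of neural development that has also been tied to tumour cell dormancy, had 13, 62 and 36 counts and log2 ratios of 2.09 (1.37 to 3.23) and 1.17 (0.33 to 2.32). NR2F2, its relative of vein and mesenchyme, had 1348, 2386 and 2457 counts and ratios of 0.82 and 0.68. The share of NR2F2 in the NR2F sum was 13.7% in the parental line, 25.3% in CAL27/5FU and 34.4% in CAL27/OXA. NR2E1, a neural stem cell gene, had 22, 26 and 99 counts and was over 2-fold higher in CAL27/OXA, by a log2 ratio of 1.89 (1.30 to 2.72) against CAL27 and 1.68 (1.11 to 2.43) against CAL27/5FU.

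HNF4G, a gut and liver receptor gene, had 144, 415 and 130 counts. Its log2 ratio was 1.51 (1.243 to 1.804) in CAL27/5FU and -0.33 (-0.69 to 0.02) in CAL27/OXA. Like PPARG it was past 2-fold in CAL27/5FU, and its ratio between the resistant lines was -1.84 (-2.15 to -1.57). NR2C1 had 1488, 1494 and 1898 counts and NR2C2 2029, 2485 and 2385, and NR2E3 had 5, 13 and 6 and was not compared.

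The remaining orphans past 2-fold had few counts or lay at the threshold. ESRRA had 5503, 5130 and 4334 counts and log2 ratios of -0.11 and -0.53, and ESRRG had 26, 55 and 49, with a ratio of 1.02 (0.38 to 1.81) in CAL27/5FU. NR5A2, a regulator of bile acid and pancreas genes, had 11, 43 and 28 counts and ratios of 1.79 (0.98 to 3.06) and 1.04 (0.11 to 2.31). NR6A1, a germ cell factor, had 939, 467 and 634 counts and ratios of -1.01 (-1.18 to -0.85) and -0.75. The calls of ESRRG and NR6A1 thus rest on values at the 2-fold line.

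The NR4A genes are immediate-early genes that act without a known natural ligand. NR4A3 had 35, 44 and 111 counts in CAL27, CAL27/5FU and CAL27/OXA, with log2 ratios of 0.31 and 1.43 (0.92 to 2.07). NR4A1, with 338, 300 and 302 counts, and NR4A2, with 216, 203 and 301, stayed within 2-fold. Of 10 other immediate-early genes, 1 was over 2-fold higher and 1 lower in CAL27/5FU, and 2 were higher and 1 lower in CAL27/OXA. The shares of all genes were 8.46% and 6.72%, and 6.54% and 9.28%. EGR1 had 1458, 2818 and 5268 counts and JUN 2204, 3002 and 5354, both highest in CAL27/OXA, while FOS had 603, 294 and 301.

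Receptors act through coregulators. Of 13 coactivators, 11 were within 2-fold and 2 were lower in each line, beside 11600 and 11513 of all 13676 genes within 2-fold. KAT2B, a histone acetyltransferase gene, and NCOA3 were the lower ones in CAL27/5FU, and NCOA2 and NCOA3 in CAL27/OXA. By total counts 1 of these calls was left in CAL27/5FU. KAT2B had 260, 84 and 337 counts, with log2 ratios of -1.61 and 0.18. NCOA3, a steroid receptor coactivator often amplified in cancer, had 7908, 3732 and 2973 counts, with log2 ratios of -1.09 and -1.60. Its relative NCOA2 had 2738, 1387 and 879 and ratios of -0.99, within 2-fold, and -1.83. The median of the coactivators was -0.15 and -0.38, and in CAL27/5FU it changed sign to 0.02 by total counts. Of 8 corepressors, 1 was higher and 1 lower in CAL27/5FU, and 1 was higher in CAL27/OXA, beside 8.46%, 6.72% and 6.54% of all genes. NRIP1, a corepressor that many receptors also induce, had 1813, 4138 and 3456 counts. TBL1X, a part of the NCOR complex, had 52 counts in the parental line, 4 in CAL27/5FU and 160 in CAL27/OXA.

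**Figure D5:**
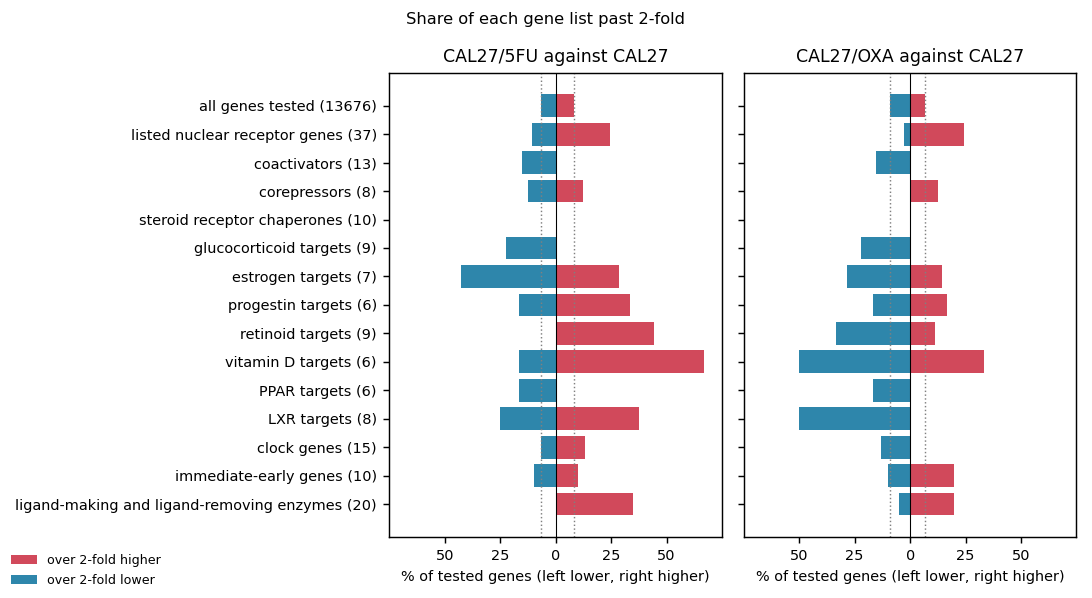
Percent of compared genes over 2-fold higher (right) and lower (left) than CAL27 in CAL27/5FU and CAL27/OXA, for all genes, the receptors and the lists of related genes (number compared in brackets), with dotted lines at the values of all genes. Receptors reach 24.3% higher in both lines, a share that includes PGR and RARB. Both entered only through the resistant libraries and had to be higher there. No steroid receptor chaperone gene is past 2-fold.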

How the data were processed

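RNA-seq of total RNA was described in 3 libraries, 1 per line. The authors deposited read counts per gene, not normalized, and FPKM values, which were scaled by total counts: for all 14367 genes with counts in each library a single gene length was recovered within 0.1%. The submitters' processing notes name CASAVA 1.8, HISAT2 2.0.5 and GRCh38 (hg38). The counting tool, annotation and strandedness are not given in the sources used here. Each table holds 3 further columns of per-sample values, which by name are second samples of these lines. They match no sample label and were not used, so the lack of replicates is one of this description and not of the tables. Nothing states whether cultures were independent.

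Counts were scaled by TMM (edgeR 4.0.16, R 4.3.3) and expressed as log2 CPM (prior count 2). Comparisons took in genes averaging 10 counts or more per library, and calls were those past 2-fold. With 1 library per group no test was made, since the study's own use of DESeq2 needs replicates. Intervals of ratios are 95% Clopper-Pearson intervals for both counts together and cover counting error only, and bounds use a floor of 3 counts. The calculation was tested on simulated data.

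The receptors, 14 lists of related genes and 5 marker lists were chosen with earlier results of these data known. Named were receptors past 2-fold in any comparison or crossing the floor, the 10 with the highest mean FPKM, at most the 4 largest ratios past 2-fold of a list, markers, and the neighbours of PGR. Examples outside this rule (among them FKBP5, CXCL12, HAND2, IHH, the immediate-early genes and ligand-making enzymes beyond the largest, and receptors that stayed within 2-fold) were added after their values were seen or to account for every receptor. Gene positions and overlaps are from GENCODE 29, and promoters from RefSeq (GRCh38.p14) matched 41 of 46 receptors, leaving out VDR, HNF4G, NR2F6, NR4A2 and NR0B2. Alternatives were DESeq2 1.42.0 size factors, upper quartile and total-count scaling, other filters, prior counts and thresholds, and FPKM.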

Additional observations from a re-analysis of the deposited data

Results flagged for a closer look

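For 4 genes of the related lists the resistant lines lay past 2-fold on opposite sides of the same CAL27 library. The log2 ratio of TBL1X, of the NCOR corepressor complex, was -3.19 in CAL27/5FU and 1.40 in CAL27/OXA, from 52, 4 and 160 counts in CAL27, CAL27/5FU and CAL27/OXA. That of the vitamin A uptake receptor gene STRA6 was 1.24 and -6.08, the latter from 2 counts in CAL27/OXA and so dependent on the prior count. That of CD14, a vitamin D target of monocytes, was 1.01 and -1.09, from 637, 1290 and 341 counts. That of ABCG1, a cholesterol exporter gene, was 1.73 and -1.04, from 11, 41 and 5 counts. With 1 library per line these differences were not tested. No receptor was past 2-fold in opposite directions. The share of all genes lying on opposite sides was not counted, so neither these 4 genes nor the lack of receptors has a background.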

How the results depend on the processing

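Of 29 receptor ratios past 2-fold, 5 stayed past it under every alternative run, namely PPARG and PPARD in CAL27/5FU, NR1D2 in CAL27/OXA, and PPARG and HNF4G between the resistant lines. The other 24 came within 2-fold under at least 1 alternative, and none changed sign. FPKM with a pseudocount of 1, which compresses low levels, left 1 receptor higher and 1 lower in CAL27/5FU, 1 and 0 in CAL27/OXA, and 0 higher between the resistant lines. In all 13676 genes it left 503 higher and 311 lower, 368 and 481, and 165 higher. A receptor under 1 FPKM in every library, such as PGR, cannot pass 2-fold in that setting, whatever its counts. The tally of 5 thus partly sorts receptors by level. FPKM with a pseudocount of 0.1 and total-count scaling each left 1 lower in CAL27/5FU and 0 in CAL27/OXA. Of all genes they left 613 and 699 lower in CAL27/5FU, and 909 and 1052 in CAL27/OXA. A mean of at least 50 counts left 5 higher in each line, and the median log2 ratio of the receptors then was -0.10 in both. A 4-fold threshold left 4 higher and 0 lower in CAL27/5FU, 3 and 0 in CAL27/OXA, and 0 in either direction between the resistant lines. In all 13676 genes it left 404 higher and 286 lower, 296 and 412, and 167 and 352. With the whole interval past 2-fold, 5 were higher and 2 lower in CAL27/5FU, and 5 and 0 in CAL27/OXA. All 13676 genes then gave 749 higher and 593 lower, and 526 and 864. Of the receptors PGR alone was among the higher ones in both lines. By construction these settings compare fewer genes, shrink the ratios of low genes, shift all ratios or raise the threshold. No paired analysis was possible because each group has 1 library, and no replicate could be left out. The counts of PGR, RARB, NR2F1, NR5A2 and other scarce receptors set wide intervals, and variation between cultures was not measured here.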
